A study of Mus musculus with 3 samples.

Results

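The exocytosis machinery described here comprised the genes whose symbols matched the numbered synaptotagmins, syntaxins, syntaxin-binding proteins, Vamp, Snap and complexin genes, Rab3a to Rab3d, and Rab27a and Rab27b. Of 55293 gene symbols in the count table, 60 matched, and the 55 with 50 or more counts over all columns were described. The 5 below that number were Cplx1 and Vamp9 with 46 counts each, Cplx3 with 37, Cplx4 with 9 and Syt8 with 0. The members comprised 16 synaptotagmins, 15 syntaxins, 6 syntaxin-binding proteins, 6 Vamp genes, 5 Snap genes, 1 complexin and 6 Rab genes. Snap91 matched by its name, although it encodes the clathrin adaptor AP180 and no SNARE, and several syntaxins act inside the cell and not at the plasma membrane.

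Pituitaries from mice labelled TpitWT, TpitHT and TpitKO had been dissociated whole and profiled by single-cell RNA sequencing, with 1 library per genotype. Tbx19 encodes Tpit, a transcription factor of the cells that make pro-opiomelanocortin, and the libraries are called WT, HT and KO. The labels do not spell out HT, and they give neither the allele, the age and strain of the mice, nor how many pituitaries entered each library. Variation between animals could not be measured from single libraries, so no test was possible, and every interval printed covers counting error only, at 95%.

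Hormone cells of the pituitary store peptide hormones in dense-core granules and release them when intracellular calcium rises. Fusion is carried out by SNARE proteins: a vesicle SNARE of the Vamp family pairs with a syntaxin and a Snap protein of the target membrane, while Stxbp2 and Stxbp3 encode proteins that hold the syntaxin. Some synaptotagmins are calcium sensors and others do not bind calcium. Complexins clamp and promote the assembled complex, and Rab3 and Rab27 proteins bring granules to the plasma membrane. Relatives such as Stx5a, Stx16, Stx18 and Vamp4 work in the Golgi, endosome and endoplasmic reticulum routes of every cell.

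The libraries held 11222 (WT), 12839 (HT) and 13413 (KO) cells and 107289047, 152382545 and 133252735 counts, or means of 9561, 11869 and 9935 counts per cell. Between 36 and 40 cell barcodes were shared by each pair of libraries. Tbx19, read first as a check of the labels, stood at 17.6, 12.4 and 0.69 CPM (counts of a gene per 1000000 counts) in WT, HT and KO. The authors' 21 clusters carried no cell type names in the files and were named by marker genes. Clusters 0 (lactotrope-like), 1 and 2 (somatotrope-like), 3 (gonadotrope-like), 6 (corticotrope-like), 7 (melanotrope-like) and 14 (thyrotrope-like) were taken as endocrine. Clusters 8 and 19 (macrophage-like), 9 (endothelial-like), 10 (stem cell-like), 15 (fibroblast-like) and 18 (pituicyte-like) were taken as non-endocrine. Cluster 16 was lymphocyte-like, and clusters 4, 5, 11, 12, 13, 17 and 20 stayed unnamed. The KO library had no cell in clusters 6 and 7 and 17 cells in cluster 2, whereas it had 2457 cells in cluster 5 against 28 in WT and 24 in HT, and 871 in cluster 11 against 53 and 107. The clusters had been made from expression, so differences between clusters are descriptions. Gh took 67.0% of all counts in cluster 1 and Prl took 50.1% in cluster 4, which lowers the CPM of every other gene there. A second scale without the 7 hormone genes and the mitochondrial genes in the total is given where it changes a statement.

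The described genes took 0.203%, 0.211% and 0.213% of all counts of WT, HT and KO. The family sums were near each other in the 3 libraries. The synaptotagmins summed to 475, 505 and 533 CPM in WT, HT and KO. The syntaxins summed to 457, 451 and 474 CPM, the Vamp genes to 330, 355 and 356, and the Rab genes to 324, 340 and 314. The Snap genes summed to 286, 298 and 280 CPM, and the syntaxin-binding proteins to 99.7, 95.8 and 111. Cplx2 was the only described complexin, at 59.4, 64.2 and 64.9 CPM.

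Levels differed widely between the members of a family. Syt4, a synaptotagmin of dense-core granules that does not bind calcium as Syt1 does, was the most counted of all, at 215, 253 and 277 CPM in WT, HT and KO and with a count in 70.3%, 76.4% and 71.2% of cells. Syt1, a fast calcium sensor, stood at 76.3, 70.8 and 64.8 CPM. Syt7, a slower sensor with high calcium affinity, stood at 51.4, 47.9 and 52.1 CPM. Among the SNAREs, Vamp8, known from endosomal and granule fusion, led its family at 143, 157 and 155 CPM, ahead of Vamp2, the granule SNARE of neuroendocrine cells, at 85.2, 88.5 and 90.5, and Vamp4 at 59.1, 61.4 and 57.1. The plasma-membrane SNARE Snap25 stood at 140.0, 149.8 and 140.2 CPM, followed by Snap47 at 82.7, 86.0 and 79.4 and the widely expressed Snap23 at 29.7, 29.1 and 26.9.

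The syntaxins with most counts were those of internal membranes. Stx16, of the trans-Golgi network, stood at 92.3, 86.1 and 95.8 CPM in WT, HT and KO. Stx7, of endosomes, stood at 57.4, 56.9 and 55.3, and Stx5a, of the Golgi, at 48.3, 46.9 and 49.6. Stx1a, 1 of the plasma-membrane syntaxins, stood at 5.36, 5.51 and 6.67 CPM. Others of that membrane had more counts: Stx3 stood at 38.0, 37.8 and 39.8 CPM, and Stx4a at 33.5, 32.8 and 37.8. CPM is not scaled by transcript length. Any order of genes here and in the paragraph before is therefore an order of counts and no ranking of transcript numbers. Of the syntaxin-binding proteins, Stxbp3 stood at 15.1, 16.4 and 19 CPM, and Stxbp4 at 16.9, 13.1 and 17.1. The granule Rabs Rab3c, Rab3a and Rab3b stood at 94.9, 99.8 and 89.1 CPM, at 87.8, 87.8 and 75.3, and at 60.1, 79.4 and 75.7.

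**Figure D1:**
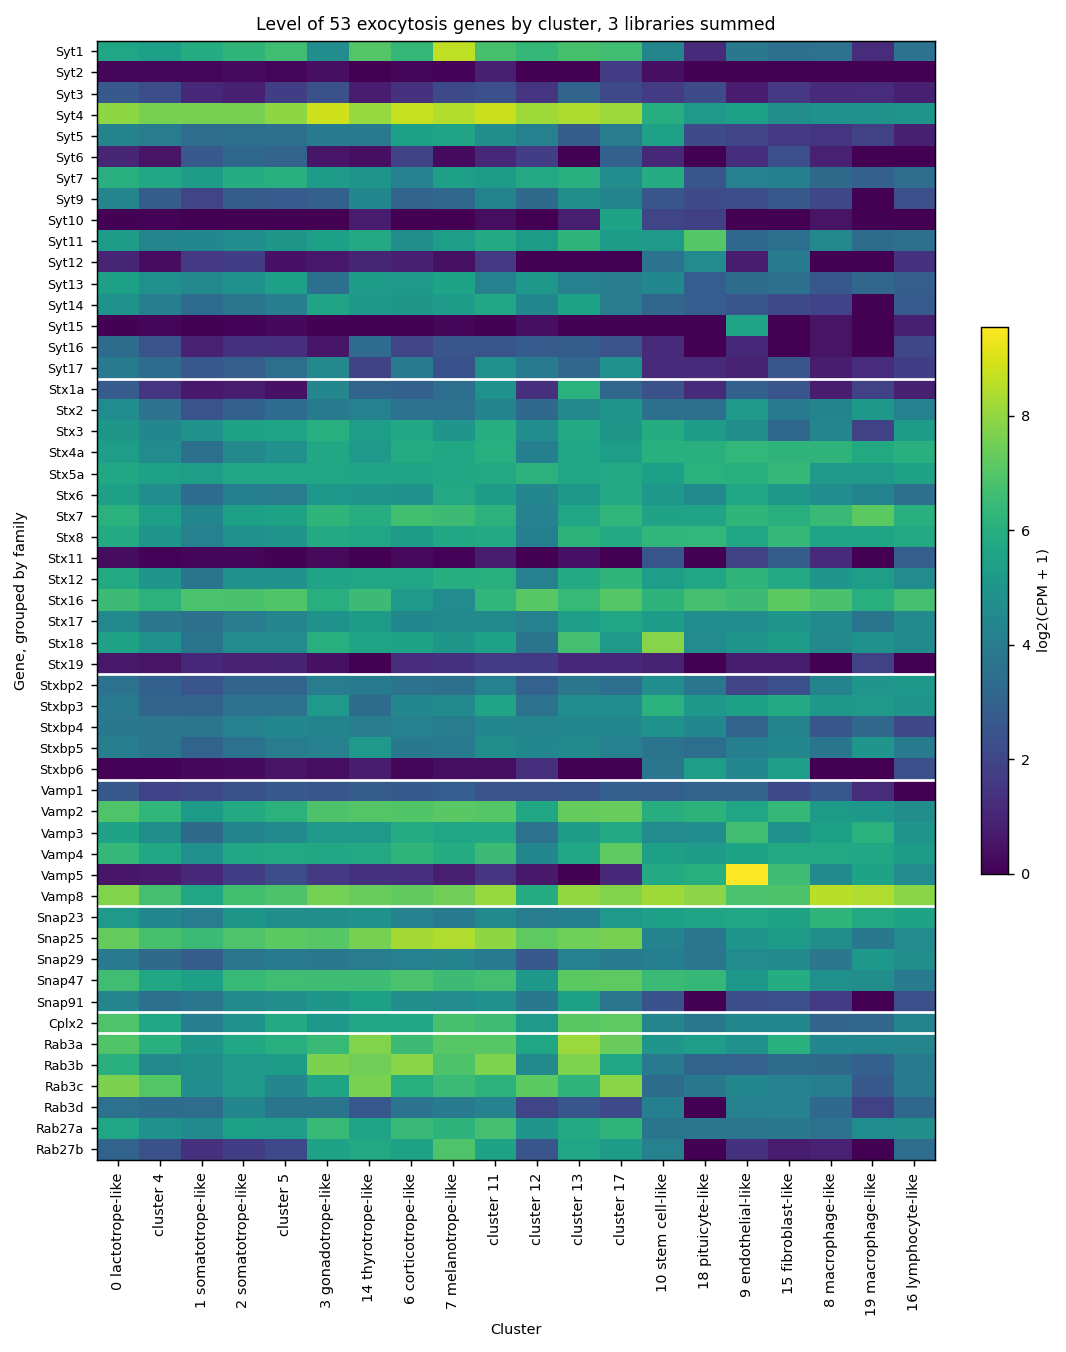
Level of 53 of the described genes (rows, grouped by family) in 20 clusters (columns; cluster 20, with 13 cells, is not drawn), as log2 of CPM plus 1 with the 3 libraries summed. Vamp5 and Syt15 stand out in cluster 9, Syt10 in cluster 17, Syt1 in cluster 7 and Stx18 in cluster 10, while Stx5a and Stx16 are spread over all columns.

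The level of each member in the endocrine clusters was set against its level in the non-endocrine clusters. Of 54 members with enough counts, 15 were at least 2-fold higher in the endocrine clusters in each of the 3 libraries (27.8%), against 9.11% of all 22608 genes compared. Another 6 were at least 2-fold lower (11.1%), against 17.5% of all genes. The endocrine sets held 9388, 10674 and 6180 cells, and the non-endocrine sets 871, 1157 and 1683. Their mix of clusters differed: KO had no cell of clusters 6 and 7, and 17 cells of cluster 2 against 2081 and 2092. Cluster 18 gave 107 cells to the non-endocrine set of KO, against 9 and 2 in WT and HT. Ratios of KO are therefore not read against those of WT and HT. With the unnamed clusters 4 and 5 added to the endocrine set, a choice not planned beforehand, 13 members were higher and 8 lower. The share of all genes for that choice is not given.

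The higher members included a plasma-membrane SNARE, synaptotagmins, the complexin and 4 granule Rabs. Snap25 stood at 149.5, 158.5 and 151.6 CPM in endocrine cells of WT, HT and KO, against 31.9, 20.9 and 23.6 in non-endocrine cells. Rab3b, 4.75-fold, 8.68-fold and 12.7-fold higher in endocrine cells, and Rab3c, 4.83-fold, 10.6-fold and 7.89-fold higher, had the largest differences of the Rabs. Rab27a, which recruits granule effectors, was 3.18-fold, 4.65-fold and 4.94-fold higher. The synaptotagmin Syt4 was 4.70-fold, 5.96-fold and 8.77-fold higher, and Syt1 was 4.41-fold, 5.05-fold and 5.49-fold higher. Syt17 was 4.54-fold, 20.3-fold and 11.1-fold higher, on non-endocrine levels of only 2.35, 0.494 and 1.42 CPM. Syt14 was 3.46-fold, 3.70-fold and 8.94-fold higher, and Cplx2 was 3.68-fold, 4.89-fold and 4.22-fold higher. Syt16 had no count in the non-endocrine cells of WT, where 3 counts would put it at least 6.27-fold higher in endocrine cells, and was 5.60-fold and 3.78-fold higher in HT and KO. Snap91, Rab3a, Syt13 and Syt9 were among the 15 as well.

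Of the 6 lower members, 4 stood at 1.45 CPM or lower in the hormone cells. Vamp5, a Vamp of muscle and endothelium, was at 1.45, 1.28 and 1.04 CPM in endocrine cells of WT, HT and KO and at 166, 197 and 246 in non-endocrine cells. Syt15 was at 0.0321, 0.0448 and 0.0801 CPM in endocrine cells against 7.32, 6.59 and 16. Stxbp6, which encodes the SNARE-binding protein amisyn, was at 0.268, 0.112 and 0.0962 CPM against 10.45, 14 and 15.4. Stx11, a syntaxin of immune cells, was at 0.129, 0.179 and 0.208 CPM against 3.14, 2.31 and 3.43. Syt12 was at 1.63, 1.69 and 0.305 CPM against 6.01, 5.11 and 7.33. Stxbp3 was at 14.4, 14.6 and 20.6 CPM against 43.6, 57.7 and 44.8, and it was not 2-fold lower in every library once hormone and mitochondrial genes left the totals.

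The remaining 33 members passed neither bound, and they included genes of granule fusion as well as SNAREs of internal membranes. Vamp2 was 1.48-fold, 2.04-fold and 1.96-fold higher in endocrine cells of WT, HT and KO, Stx1a 1.17-fold, 2.45-fold and 2.01-fold, and Syt7 1.42-fold, 1.69-fold and 2.05-fold. Stx5a stood at 48.9, 47.3 and 49.4 CPM in endocrine cells of WT, HT and KO against 46.3, 47.9 and 50.8 in non-endocrine cells, and Stx16 at 93.6, 86.9 and 90.9 against 101, 89.6 and 92.1. Snap23 and Vamp8, known for fusion in non-neuronal cells, tended to the other side: Snap23 stood at 29.5, 28.6 and 26.5 CPM in endocrine against 58.0, 49.9 and 54.3 in non-endocrine cells. Vamp8 stood at 141, 153 and 170 CPM against 264, 273 and 242. With totals that left out hormone and mitochondrial genes, 21 members were higher, with the 15 above still among them and Rab27b, Syt6, Vamp2, Snap47 and Syt7 added, and 5 were lower. That change raised the ratio of every gene left in the totals. The share of all genes passing on that scale is not given, so the rise is no result about the members.

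**Figure D2:**
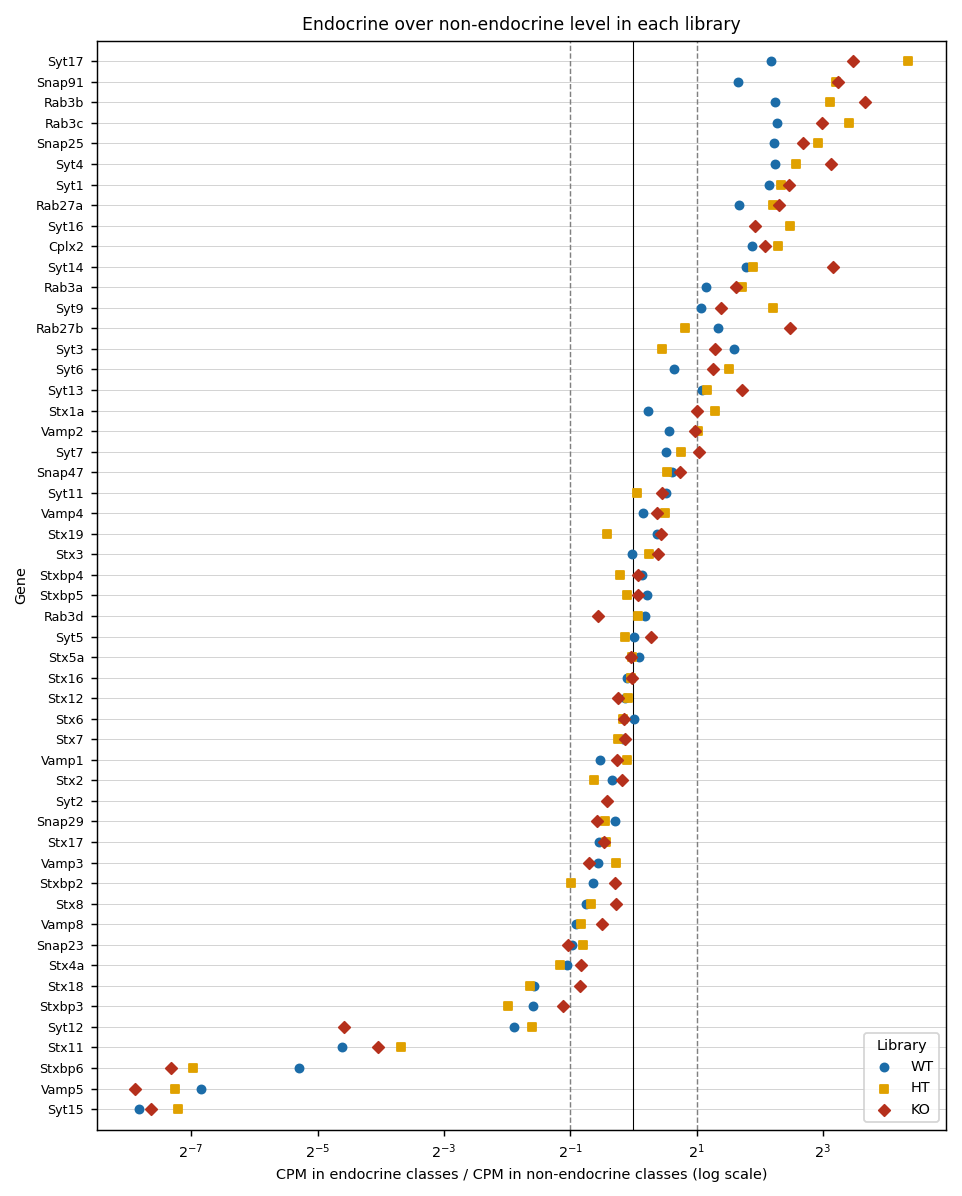
Ratio of CPM in endocrine clusters to CPM in non-endocrine clusters (log axis) for 52 genes, 1 marker per library, with dashed lines at 2-fold; ratios with a denominator of 0 (Syt16 in WT, Syt2 in WT and HT) are not drawn. The genes right of the line in all 3 libraries include Rab3b, Rab3c, Snap25 and Syt4, and Vamp5, Syt15, Stxbp6 and Stx11 lie farthest to the left.

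Counts of abundant endocrine genes were also found in non-endocrine cells. Snap25 had a count in 7.82% (5.07 to 11.4), 7.69% (5.21 to 10.9) and 7.91% (5.51 to 10.9) of macrophage-like cells of WT, HT and KO, which should lack it, against 76.2% and 84.8% of corticotrope-like cells of WT and HT. Macrophage-like cells had means of 3630 to 4644 counts per cell and corticotrope-like cells of 7376 to 9256. Gh, which macrophages do not make, stood in cluster 8 at 24.2%, 16.1% and 8.72% of its level over all cells, and the part of free RNA in the non-endocrine levels was not tested.

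Vamp5 and Syt15 led the endothelial-like cluster 9, each at least 4-fold above its next cluster in every library. The bound was read only in libraries with 50 or more cells of the cluster, which for cluster 17 was KO alone, and Syt10 and Syt2 met it there. In all, 4 of 55 members led 1 cluster by this rule (7.27%), against 5.03% of all 23539 genes. Vamp5 stood at 673 (616 to 735), 798 (749 to 850) and 745 (710 to 780) CPM in cluster 9 of WT, HT and KO, with a count in 77.8%, 89.3% and 82.8% of its cells. Its next cluster was the fibroblast-like cluster 15, at 101, 88.8 and 98.0 CPM, and the stem cell-like cluster 10 stood at 54.8, 56.2 and 56.3. Syt15 stood at 37.5 (24.9 to 54.2), 32.8 (23.4 to 44.6) and 56.7 (47.5 to 67.2) CPM in cluster 9, from 28, 40 and 133 counts. In the clusters next in order it stayed at 1.90 CPM or lower among clusters with 50 or more cells. The 3 libraries agreed within 1.5-fold for Vamp5, and for Syt15 the KO value was the highest.

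Syt10, a synaptotagmin known from neurons, was counted at 31.8 (12.8 to 65.5), 51.5 (31.5 to 79.6) and 49.0 (26.8 to 82.3) CPM in the unnamed cluster 17 of WT, HT and KO. These levels rested on 7, 20 and 14 counts in 36, 48 and 50 cells, and outside cluster 17 no cluster of 50 or more cells exceeded 4.58 CPM. Syt10 was itself among the leading genes of that cluster. Syt2, the fast sensor of some neurons, met the bound on only 2 counts in the KO library, with 0 counts in cluster 17 of WT and HT, so its lead rests on 2 counts.

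The 250 bases before the RefSeq start of 4 genes are shown because Vamp5, Syt15 and Syt10 led 1 cluster by at least 4-fold, while Vamp8, the neighbour of Vamp5, was counted in every cluster. Vamp5 and Vamp8 lie 4754 bases apart on chromosome 6 in GRCm38. Sequences run 5′ to 3′ on the gene's strand, in GRCm38.p6, and capitals mark matches on either strand to the GC box (GGGCGG), the CCAAT box (CCAAT) and the ETS core (CCGGAA). The windows are chr6:72380469-72380718 (minus strand), chr6:72390668-72390917 (minus), chr14:34219796-34220045 (plus) and chr15:89841861-89842110 (minus). For the counts, Syt15 was placed from position 34219595, so its whole window lies inside the gene as counted. Vamp8 was placed up to position 72390703, so a part of its window lies inside the gene as counted.
Vamp5: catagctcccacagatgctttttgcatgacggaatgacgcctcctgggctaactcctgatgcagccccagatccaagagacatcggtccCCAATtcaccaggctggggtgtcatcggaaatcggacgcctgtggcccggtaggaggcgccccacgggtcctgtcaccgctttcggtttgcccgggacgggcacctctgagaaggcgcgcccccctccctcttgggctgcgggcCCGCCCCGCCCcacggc
Vamp8: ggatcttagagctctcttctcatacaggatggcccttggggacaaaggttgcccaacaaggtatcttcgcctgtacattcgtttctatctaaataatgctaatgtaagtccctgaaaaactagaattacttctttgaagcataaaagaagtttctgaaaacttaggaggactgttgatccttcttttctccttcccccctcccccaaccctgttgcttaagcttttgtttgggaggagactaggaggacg
Syt15: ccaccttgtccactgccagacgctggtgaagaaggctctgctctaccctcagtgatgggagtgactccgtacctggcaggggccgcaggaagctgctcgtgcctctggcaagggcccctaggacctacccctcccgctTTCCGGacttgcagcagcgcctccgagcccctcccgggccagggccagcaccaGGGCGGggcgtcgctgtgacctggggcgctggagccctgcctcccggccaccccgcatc
Syt10: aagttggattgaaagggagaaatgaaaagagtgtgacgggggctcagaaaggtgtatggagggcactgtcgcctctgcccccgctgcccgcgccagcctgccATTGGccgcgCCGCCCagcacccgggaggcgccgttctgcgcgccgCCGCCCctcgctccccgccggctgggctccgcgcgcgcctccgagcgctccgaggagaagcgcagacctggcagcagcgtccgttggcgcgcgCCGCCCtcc
The Vamp5 window held 2 GC boxes and 1 CCAAT box at 66.0% G and C. The Vamp8 window held no match to these 3 motifs at 43.6% G and C. The Syt15 window held 1 GC box and 1 ETS core, and the Syt10 window 3 GC boxes and 1 CCAAT box. RefSeq windows were found for 43 of the 55 members, 54 windows in all, since some genes have several starts. A GC box lay in 64.8% of them against 32.7% of all 32851 windows of that length, a CCAAT box in 33.3% against 33.8%, and an ETS core in 13% against 12%. The TATA box (TATAAA) and the CRE (TGACGTCA), not marked above, lay in 5.56% against 12.4% and in 1.85% against 1.55%. Genes with several starts enter these shares more than once. A match is a run of letters and no measured binding.

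Other members had a clear preferred cluster without leading it 4-fold. Stx18, a syntaxin of the endoplasmic reticulum, stood at 218 (195 to 244), 232 (213 to 252) and 217 (199 to 236) CPM in the stem cell-like cluster 10 of WT, HT and KO, above every other cluster in each library. Vamp8 was highest among clusters of 50 or more cells in the macrophage-like cluster 8, at 339, 420 and 369 CPM, and Snap23 was highest there too, at 81.7, 74.7 and 73.3. Those values were 9.79, 16.6 and 27.3 times for Vamp8, and 11.4, 16 and 31.3 times for Snap23, the level that the Gh share of that cluster would give. The multiples depend on that share, which was 24.2%, 16.1% and 8.72% in WT, HT and KO. The part of free RNA in the Vamp8 and Snap23 values was not tested. Among clusters of 50 or more cells, Stx1a was highest in the unnamed cluster 13, at 62.1 (43.2 to 86.3), 73.4 (58.8 to 90.5) and 61.3 (46.1 to 80.0) CPM. Syt11, which lacks calcium binding, stood at 140 CPM in the pituicyte-like cluster 18 of KO, the only library with more than 9 cells there. With the libraries summed, 13 of 55 members were highest in an endocrine cluster, and 17 with totals that left out hormone and mitochondrial genes. Cluster 17 was the highest for 11 members and cluster 13 for 6. No share of all genes stands beside these counts, and cluster 17 held only 36, 48 and 50 cells of WT, HT and KO. The counts are therefore not read as a trait of the members.

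The hormone cell types held the granule genes at different levels. Among the named hormone clusters, Rab3c was highest in lactotrope-like cluster 0, at 213, 200 and 196 CPM in WT, HT and KO, and in thyrotrope-like cluster 14, at 217, 174 and 191, and stood at 28.1, 26.3 and 15.9 in somatotrope-like cluster 1. Rab3b was highest of them in gonadotrope-like cluster 3, at 195, 204 and 204 CPM, and in corticotrope-like cluster 6, at 176 in WT and 279 in HT. In cluster 0, Rab3b stood at 61.1, 67.3 and 68.5 CPM. Rab3a reached 229, 294 and 173 CPM in cluster 14 and 307, 269 and 258 in the unnamed cluster 13. Syt4 stood at 356, 399 and 523 CPM in cluster 3, with a count in 92.7%, 95.9% and 97.1% of cells. Syt1 stood lowest of the named hormone clusters in cluster 3, at 16.1, 14.6 and 31.9 CPM.

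Corticotropes of the anterior lobe and melanotropes of the intermediate lobe both process pro-opiomelanocortin, and they were compared in WT and HT, since KO had no cell in either cluster. Of 47 members with enough counts, 6 differed at least 2-fold the same way in both libraries (12.8%), against 11.2% of 14751 genes. The melanotrope-like cluster 7 held more of 4 members (8.51%, against 6.01% of all genes), and the corticotrope-like cluster 6 more of 2 (4.26%, against 5.21%).

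Syt1 differed most among the members higher in melanotrope-like cells. It stood at 394 (378 to 410) and 395 (382 to 408) CPM in cluster 7 of WT and HT against 85.3 (79.0 to 91.9) and 76.2 (70.7 to 81.9) in cluster 6, that is 4.62-fold (4.24 to 5.03) and 5.18-fold (4.78 to 5.62) higher. A Syt1 count was found in 88.6% and 91.1% of melanotrope-like cells and in 33.5% and 34.4% of corticotrope-like cells. Rab27b, a granule Rab, stood at 119 and 119 CPM against 54.7 and 37.3. Syt7 stood at 40.0 and 41.9 CPM against 13.2 and 20.0, 3.04-fold and 2.09-fold higher. Cplx2 stood at 124 and 98.7 CPM against 61.7 and 44.1, close to the bound at 2.00-fold and 2.24-fold.

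Syt17 was higher in corticotrope-like cells, at 20.2 and 10.0 CPM in WT and HT against 5.23 and 3.58 in melanotrope-like cells. Syt6 was 4.99-fold (1.13 to 45.5) and 32.3-fold (5.45 to 1310) higher in corticotrope-like cells, on 2 and 1 counts in cluster 7, so the size of its difference is poorly known. Rab3b was higher in both libraries, 1.85-fold (1.68 to 2.04) and 2.11-fold (1.97 to 2.27), and missed the bound in WT. Stx16 passed it in WT alone, 2.10-fold and 1.08-fold. Snap25 was close in both clusters, at 289 and 322 CPM in cluster 6 against 319 and 348 in cluster 7.

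**Figure D3:**
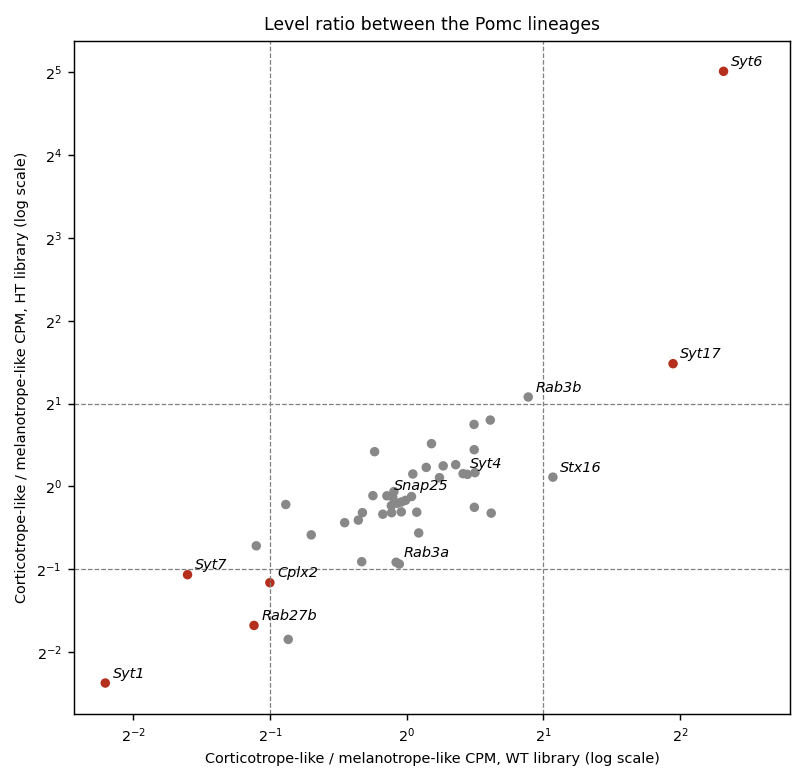
Ratio of CPM in corticotrope-like to CPM in melanotrope-like cells in WT (x axis) and HT (y axis), both log axes, 1 point per gene with 47 genes; dashed lines mark 2-fold and red points pass it in both libraries. Syt1, Rab27b, Syt7 and Cplx2 lie on the melanotrope-like side, Syt17 and Syt6 on the corticotrope-like side, and Snap25 near 1.

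Over all cells, few members stood outside the WT and HT levels in KO. A member was counted as outside when log2 of CPM plus 1 in KO was at least 1.5-fold above the higher or below the lower of WT and HT. This held for 2 of 55 members (3.64%), against 4.01% of all genes either way, and both were higher, against 2.74% of all genes. The median log2 ratio of KO to WT was 0.05 for the members and 0.05 for all genes. HT against WT passed the same fold for 0 of 55 members, against 0.782% of all genes.

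Both genes were those of the endothelial-like cluster. Vamp5 stood at 7.34, 9.04 and 17.3 CPM over all cells of WT, HT and KO, 2.36-fold (2.18 to 2.56) higher in KO than in WT. Syt15 stood at 0.289, 0.315 and 1.11 CPM, from 31, 48 and 148 counts. Cluster 9 held 63.9%, 70.7% and 75.7% of all Vamp5 counts and 90.3%, 83.3% and 89.9% of all Syt15 counts. That cluster made up 1.84%, 2.19% and 4.12% of the cells of WT, HT and KO. Within cluster 9 neither gene passed the bound, Vamp5 at the 673, 798 and 745 CPM given above. Syt15 came close to it there, at 37.5, 32.8 and 56.7 CPM, with KO 1.51-fold (1.00 to 2.36) above WT and 1.73-fold (1.21 to 2.53) above HT. A sum over all cells cannot tell more cells of a type from more RNA per cell, and these cell shares come from 1 library each. On the authors' scaled counts, averaged with equal weight for every cluster, neither gene passed the bound. The log2 differences were 0.17 for Vamp5 and 0.29 for Syt15, and only Stx19 passed. Such a mean ignores how many cells each cluster held, so it is no level over all cells.

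Without clusters 6 and 7, which KO lacked, 5 of 55 members passed (9.09%), against 3.94% of all genes, 4 higher (against 3.15%) and 1 lower (against 0.787%). The median log2 ratio of KO to WT was then 0.12 for the members and 0.11 for all genes. Besides Vamp5 and Syt15, Rab27b was higher at 8.15, 7.78 and 14.2 CPM. Syt12 was lower, at 1.88, 1.84 and 0.825 CPM. Of the Rab27b counts outside clusters 6 and 7, gonadotrope-like cluster 3 held 29.6%, 36.7% and 52.8% in WT, HT and KO, and it made up 4.77%, 5.69% and 12.4% of those cells. Cluster 11 held 1.45%, 1.72% and 16.3% of them. Rab27b within cluster 3 stood at 44.7, 38.5 and 46.7 CPM and did not pass the bound there.

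Within the 7 clusters with at least 100 cells in each library, 288 pairs of member and cluster had enough counts. KO stood outside WT and HT in 18 of them (6.25%), against 4.7% of pairs over all genes, 12 higher (4.17%, against 2.66%) and 6 lower (2.08%, against 2.04%), from 12 different genes. The pairs were uneven over clusters: 8 lay in somatotrope-like cluster 1, 3 each in clusters 3 and 10, 2 in cluster 4, 1 each in clusters 0 and 9, and 0 in macrophage-like cluster 8.

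In somatotrope-like cluster 1, which makes growth hormone, 8 of 44 members passed (18.2%), against 8.94% of all genes. The median log2 ratio of KO to WT was 0.28 for the members and 0.17 for all genes there. The 6 higher members (13.6%, against 6.48% of all genes) included 4 synaptotagmins. Syt13 stood at 15.7, 18.7 and 35.8 CPM in WT, HT and KO, 2.28-fold (1.92 to 2.71) above WT. Syt4 stood at 170, 168 and 275 CPM, and Syt1 at 56.6 (52.7 to 60.7), 48.3 (45.2 to 51.6) and 86.3 (80.5 to 92.3). Syt17 stood at 3.83, 4.29 and 8.42 CPM. Stxbp5, which encodes tomosyn, an inhibitor of SNARE assembly, stood at 6.07, 5.92 and 11.9 CPM, from 84, 109 and 116 counts. Rab27b stood at 1.30, 1.14 and 2.67 CPM, from 18, 21 and 26 counts.

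The 2 lower members of cluster 1 (4.55%, against 2.46% of all genes) were Rab3c and Syt12. Rab3c stood at 28.1 (25.4 to 31.0), 26.3 (24.0 to 28.7) and 15.9 (13.5 to 18.6) CPM in WT, HT and KO, with a count in 16.3%, 18.1% and 8.92% of cells. Syt12 stood at 2.53, 2.44 and 0.513 CPM, from 35, 45 and 5 counts. Mean counts per cell in cluster 1 were 8466, 10741 and 8196. Syt1 and Syt4 no longer passed when hormone and mitochondrial genes were left out of the totals, at log2 differences of 0.40 and 0.49, nor with the authors' scaled counts. The other 6 passed on both of those scales.

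In gonadotrope-like cluster 3, which makes the gonadotropins, 3 of 46 members passed (6.52%), against 4.75% of all genes. Syt1 stood at 16.1 (12.8 to 20.0), 14.6 (12.3 to 17.1) and 31.9 (29.5 to 34.3) CPM in WT, HT and KO, with a count in 11.8%, 14.8% and 23.2% of cells. Rab3c stood at 30.4 (25.8 to 35.6), 35.2 (31.7 to 39.1) and 56.5 (53.4 to 59.8) CPM, the reverse of its order in cluster 1. Vamp5 was lower at 3.18, 2.61 and 1.40 CPM, from 16, 26 and 30 counts. The WT cluster held 449 cells, HT 630 and KO 1662.

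In the Prl-rich cluster 4, 2 of 45 members passed (4.44%), against 2.65% of all genes, and both were higher. Syt1 stood at 28.2 (24.6 to 32.3), 27.2 (23.9 to 30.8) and 52.7 (49.6 to 56.0) CPM in WT, HT and KO. Rab3b stood at 12.2 (9.88 to 15), 15.6 (13.2 to 18.4) and 27.7 (25.4 to 30.1) CPM. In lactotrope-like cluster 0, the largest, 1 of 50 members passed (2%), against 2.16% of all genes: Syt12 was lower at 1.5, 1.08 and 0.306 CPM, from 45, 55 and 9 counts. Syt1 in cluster 0 stood at 48.2, 44.6 and 54.7 CPM and did not pass.

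In stem cell-like cluster 10, 3 of 41 members passed (7.32%), against 5.22% of all genes. Stxbp5 was higher at 6.76, 8.33 and 18.1 CPM in WT, HT and KO, from 10, 20 and 44 counts. Syt14 was lower at 6.76, 12.5 and 4.11 CPM, from 10, 30 and 10 counts, and its interval for KO over WT, 0.227-fold to 1.63-fold, included 1. In endothelial-like cluster 9, Syt1 alone was lower (1 of 33, 3.03%, against 4.83% of all genes), at 22.8, 14.8 and 8.95 CPM from 17, 18 and 21 counts. Those values were 0.768, 1.13 and 0.832 times the level that the Gh share of the cluster would give. Of 29 members compared in macrophage-like cluster 8, 0 passed, against 5.86% of all genes.

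**Figure D4:**
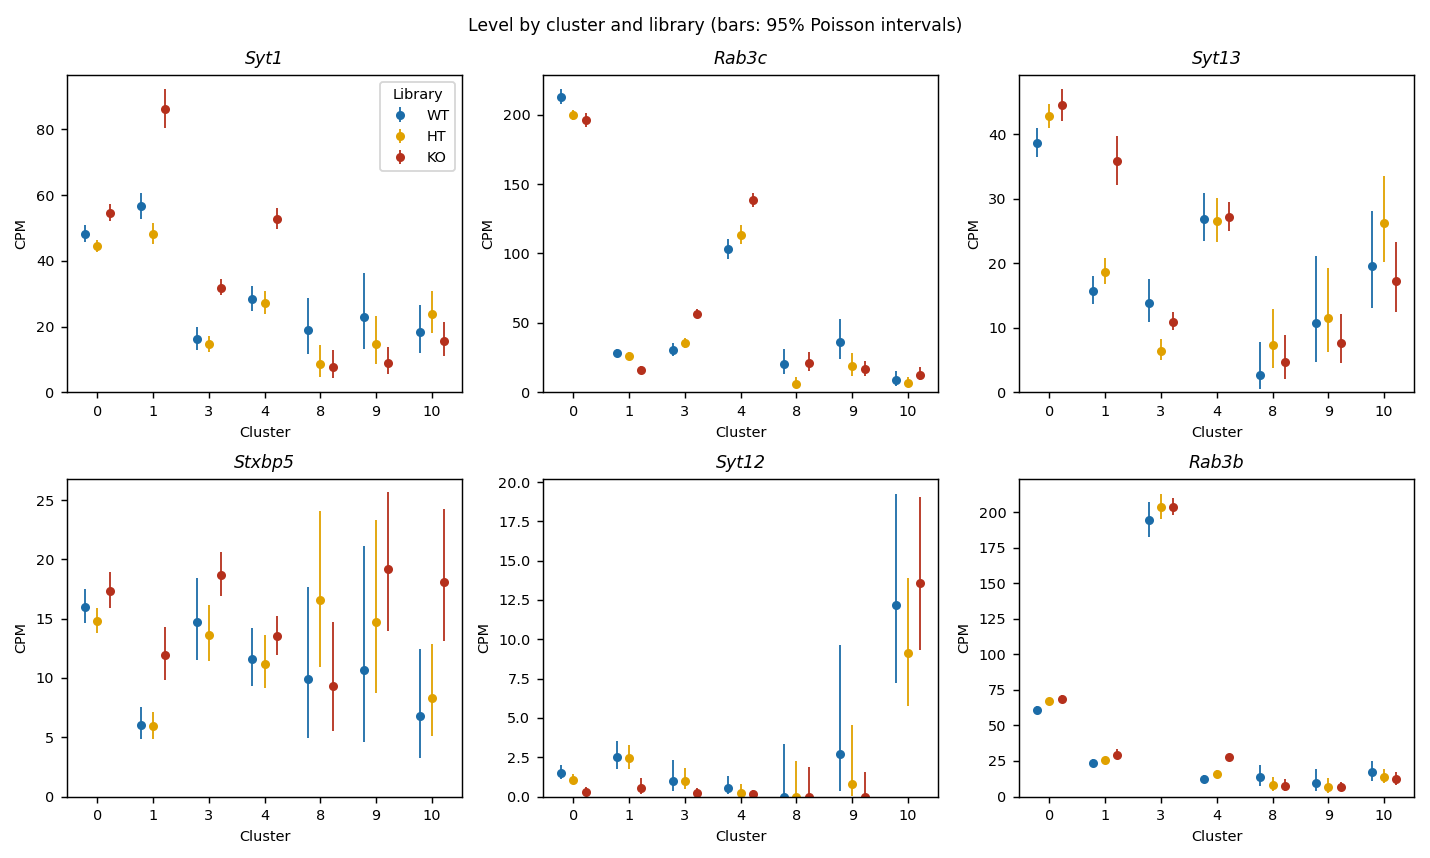
CPM of 6 genes in the 7 clusters compared (x axis, authors' cluster numbers), 1 point per library with 95% Poisson intervals and a y axis from 0. Syt1 in KO lies above WT and HT in clusters 1, 3 and 4, while Rab3c in KO lies below them in cluster 1 and above them in cluster 3.

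Clusters with 50 to 100 cells in some library added 11 pairs, on fewer counts. In cluster 11, mostly KO cells, 4 of 43 members passed (9.3%), against 11.5% of all genes. Rab3c was higher there at 24.4, 31.9 and 76.7 CPM in WT, HT and KO, on 8 and 26 counts in WT and HT. Rab3b was lower at 306, 346 and 183 CPM, and Syt5 and Vamp3 were lower too. In cluster 12, Syt13 and Stx12 were higher and Vamp8 lower (3 of 30, 10%, against 6.5%). In thyrotrope-like cluster 14, Syt7 and Stx3 were lower (2 of 34, 5.88%, against 6.38%). In cluster 13 Stx6 was higher (1 of 35, 2.86%, against 7.58%), and in cluster 15 Rab3a was lower (1 of 17, 5.88%, against 8.98%). Stx12 in cluster 12 rested on 4, 5 and 48 counts. Its intervals for KO over WT, 0.967-fold to 10.1-fold, and over HT, 0.862-fold to 6.93-fold, included 1. The interval for KO over WT also included 1 for Syt5 and Vamp3 in cluster 11 and Stx3 in cluster 14. For Rab3a in cluster 15, the interval for KO over HT did.

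HT against WT gave 23 pairs of 288 past 1.5-fold in the 7 clusters (7.99%), against 9.72% over all genes, 6 higher (against 4.51% of all pairs) and 17 lower (against 5.21%). Endothelial-like cluster 9 held 9 of them among 33 members (27.3%), against 24.7% of all genes, and 7 were lower in HT (21.2%, against 10.6%). They included Rab3a at 64.2 against 25.4 CPM, Vamp2 at 87.0 against 35.2, Stx3 at 40.2 against 19.7 and Snap25 at 49.5 against 28.7 in WT and HT. Gh stood in this cluster at 38.8% of its all-cell level in WT and at 18.5% in HT. Snap25 was at 0.911 and 1.04 times, and Vamp2 at 2.63 and 2.15 times, the level that these shares would give. The part of free RNA in these differences was not tested. In cluster 1, Cplx2 was higher in HT, at 16.8 CPM against 8.60 in WT, with KO at 24.1, and Syt6 was lower in HT.

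The KO library lacked nearly all cells of somatotrope-like cluster 2 and held cluster 5 instead, which was also rich in Gh, at 46.0% of its counts. Cluster 5 of KO was therefore set beside cluster 2 of WT and HT, without taking the clusters as the same cell type. Of 50 members, 5 passed (10%), against 6.42% of all genes. Beside clusters 1 and 2 of WT and HT summed, 9 of 50 passed (18%), against 9.44% of all genes. Syt13, Syt17, Stxbp5 and Vamp5 were then higher in KO too, but not with totals that left out hormone and mitochondrial genes. Beside cluster 2, Cplx2 was higher at 56.8 (54.2 to 59.5) CPM against 23.1 (21.4 to 24.9) in WT and 33.4 (31.5 to 35.3) in HT. Rab3c was lower at 18.2 (16.7 to 19.7) CPM against 36.0 (33.8 to 38.2) and 33.6 (31.8 to 35.6), as in cluster 1. Syt12 was lower at 0.38 CPM against 1.99 and 2.81, and Syt3 was higher on a low level. The 5 members called beside cluster 2 also passed with totals that left out hormone and mitochondrial genes. Rab3c in the few WT and HT cells of cluster 5 itself, 28 and 24 cells, stood at 62.5 (36.4 to 100) and 85.9 (53.9 to 130) CPM.

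**Figure D5:**
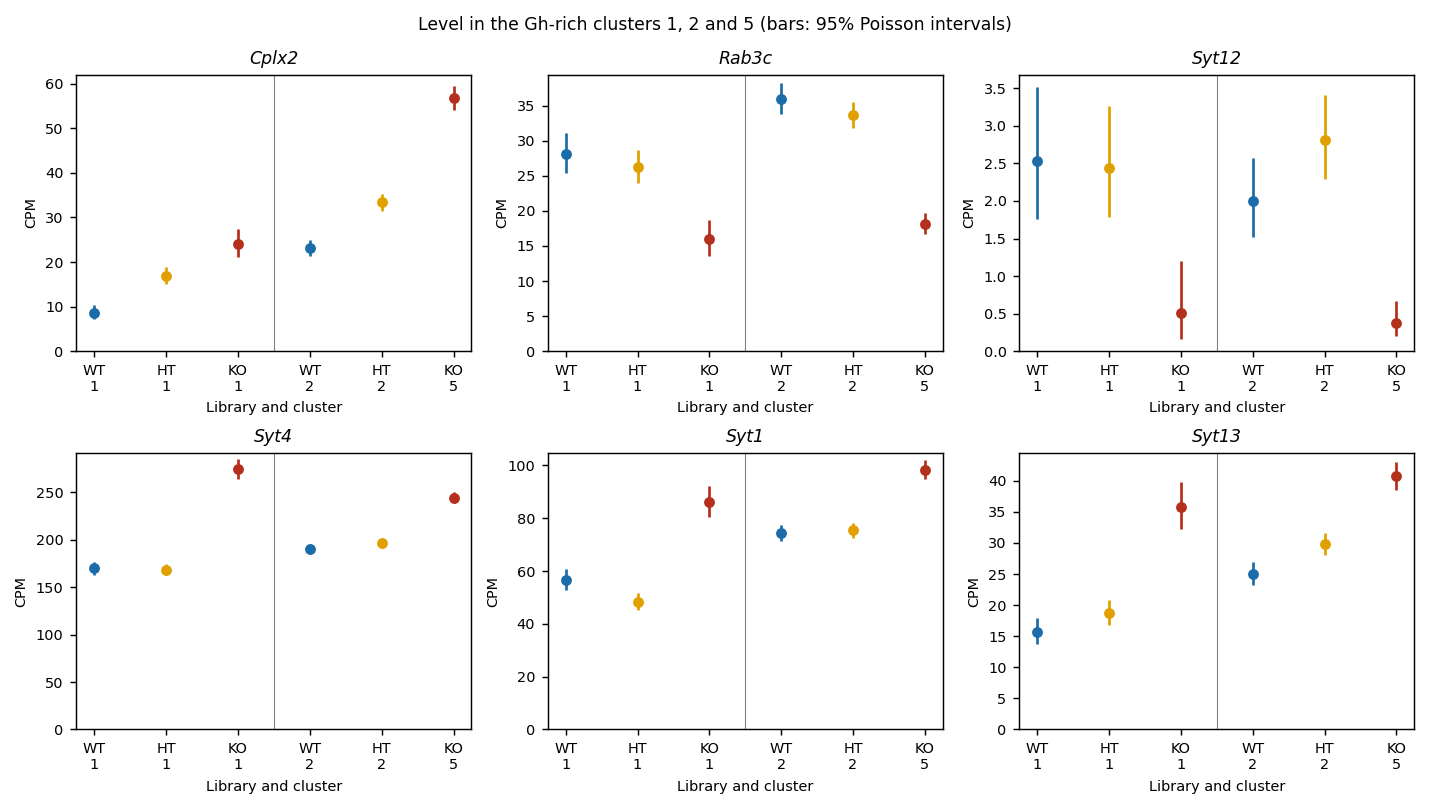
CPM of 6 genes in cluster 1 of each library, in cluster 2 of WT and HT and in cluster 5 of KO (x axis), with 95% Poisson intervals and a y axis from 0. Rab3c and Syt12 lie lower in both KO clusters, at 15.9 and 18.2 CPM for Rab3c, and Cplx2 in cluster 5 of KO lies above cluster 2 of WT and HT, while Syt1 in cluster 5, at 98.4 CPM against 74.4 and 75.5 in cluster 2, does not pass the bound.

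Cluster 11, with 871 KO cells, was set beside the corticotrope-like and melanotrope-like cells of WT and HT in the same way. Its leading genes were not those of a named cell type, and its own WT and HT cells were few. Beside cluster 6, 13 of 47 members passed (27.7%), against 22.8% of all genes. Stx1a reached 27.6 CPM there, with 8.03 in WT and 5.73 in HT, Vamp8 reached 266 against 159 and 138, and Stx16 reached 76.7 against 40.1 and 28.8. Syt5, at 23.2 against 42.5 and 41.5 CPM, and Syt13, at 16.7 against 29.3 and 39.3, were the only lower members. Vamp8, Cplx2, Syt14 and Syt3 no longer passed with totals that left out hormone and mitochondrial genes. Beside cluster 7, 11 of 46 passed (23.9%), against 22.8% of all genes. Syt1 was at 113 CPM against 394 and 395, Rab27b at 48.6 against 119 and 119, and Syt17 at 28.1 against 5.23 and 3.58.

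A list of 67 further genes of docking, priming and tethering, such as the Munc13, RIM, exocyst and synaptotagmin-like genes, was read in the same way. Over all cells, 6 of 67 stood outside WT and HT in KO, where 4.01% of all genes did. Doc2b, a calcium-binding priming factor, had the largest difference, at 3.52, 2.55 and 0.195 CPM in WT, HT and KO. Sv2b, a vesicle glycoprotein, was lower at 5.31, 5.63 and 2.18 CPM, and Rims3 was lower at 6.50, 4.71 and 2.72. Unc13c, Syn3 and Rims1 were higher, Unc13c at 1.81, 2.13 and 4.26 CPM. Outside clusters 6 and 7, 4 of the 67 were higher (against 3.15% of all genes) and 1 lower (against 0.787%). Doc2b was the lower one, at 3.18, 2.33 and 0.195 CPM, while Sv2b, at 2.45, 2.76 and 2.18, and Rims3, at 2.84, 2.55 and 2.72, did not pass there. In the 7 clusters, 17 of 318 pairs passed (5.35%), against 4.7% of pairs over all genes. Of these, 8 were higher (against 2.66% of all pairs) and 9 lower (against 2.04%). Between endocrine and non-endocrine clusters, 16 of the 67 were at least 2-fold higher (against 9.11% of all genes) and 6 at least 2-fold lower (against 17.5%) in all 3 libraries.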

How the data were processed

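The authors deposited whole-number counts, 1 sum per gene for every combination of genotype and cluster (61 in all). Per the submitters' processing notes, Cell Ranger 5, Seurat 3.1, DESeq2, mm10 and GRCm38 were used, with roles not stated. Per the labels' protocols, dead cells were sorted out and 10000 cells were targeted per library. Whether counts are molecules and whether strand was used are not given in the sources used here. If reads were not collapsed, intervals are too narrow. A deposited table of scaled counts (signal, the same sums times 1 factor per combination) served as an alternative. Where clusters were joined on that scale, their mean was taken with equal weight for each cluster, whatever its number of cells. The deposited numbers of cells in which a gene was counted, and a barcode table, gave shares of cells. No counts of single cells were used, so doublets and depth per cell were not treated further.

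Equal symbols were added, moving 110 of 55403 rows. Levels are CPM of the summed cells. KO was called outside WT and HT where log2(CPM + 1) lay 1.5-fold past both, with 50 or more counts over the 3 libraries, in clusters of 100 or more cells per library. Endocrine and lineage calls used 2-fold on CPM. Log2 differences understate changes of low genes. Clusters were named where 3 or more listed markers were 2-fold higher and at least 1 was among the 10 leading genes, and left unnamed where a hormone foreign to the name exceeded 10% of counts. Intervals are exact Poisson, Clopper-Pearson (cell shares) and conditional binomial (ratios). The calling rule, written out a second time, was run on Poisson counts simulated for cluster 1, which hold no variation between animals. The code that made the calls was not itself run on them. Genes with values in the text were the 10 highest and 6 lowest endocrine ratios, all members called over all cells and the largest calls per cluster (6 at most), the largest corticotrope and melanotrope ratios, the 3 most counted per family and those leading a cluster. Any others were chosen after their values were seen. The members and lists were chosen with earlier results of these data known. Results for 2 members are counted in totals but not reported here by name, in text or figures. Promoters were from RefSeq (GRCm38.p6). Python 3.11.15, pandas 2.3.3, numpy 2.4.6, SciPy 1.17.1 and matplotlib 3.10.9 were used.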

Additional observations from a re-analysis of the deposited data

Results flagged for a closer look

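Among the 7 clusters with 100 or more cells in each library, KO stood on opposite sides of both WT and HT in different clusters for 2 members. The share of all genes that did so is not given, so this count is no result about the members. The values are log2 differences of CPM plus 1 between KO and the nearer of WT and HT, and the difference between clusters was not tested, since each genotype had 1 library. Rab3c, which brings granules to the membrane, differed by -0.69 in somatotrope-like cluster 1 and by 0.67 in gonadotrope-like cluster 3. Syt1, the fast calcium sensor, differed by 0.60 in cluster 1, 0.94 in cluster 3 and 0.88 in the Prl-rich cluster 4, and by -0.66 in endothelial-like cluster 9. The cluster 9 value rests on 17, 18 and 21 counts in WT, HT and KO, and its interval for KO over HT, 0.308-fold to 1.21-fold, included 1. Syt1 stood there at 0.768, 1.13 and 0.832 times the level that the Gh share of the cluster would give. The part of free RNA in it was not tested. The cluster 1 value for Syt1 was 0.40 with totals that left out hormone and mitochondrial genes. With clusters of 50 to 100 cells included, Rab3b did so too, by 0.79 in cluster 4 and by -0.74 in cluster 11, and Rab3c was higher in KO in cluster 11 as well.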

How the results depend on the processing

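No paired analysis was possible because the 3 genotypes had 1 library each. With 10 CPM added in place of 1, 0 members were outside over all cells (2 in the report), 5 pairs of member and cluster (18) and 9 HT pairs (23). The authors' scaled counts, as a mean with equal weight for every cluster, gave 1 member, and leaving out clusters 6 and 7 gave 5. With no filter on counts, 38 KO pairs and 60 HT pairs passed, and with 200 or more counts 10 and 4. Clusters of 50 or more cells gave 29 KO pairs. The share of all genes is not given for 10 CPM added, scaled counts, changed filters or the pooled clusters of 50 or more cells. Those counts are therefore no result about the members. Setting cluster 5 of KO beside clusters 1 and 2 of WT and HT, a choice added after seeing the data, gave 9 members against 5 beside cluster 2 alone. Counts per cell in place of CPM gave 29 members higher in endocrine cells, against 15, and the share of all genes on that scale is not given. Of the 20 member calls for KO, 16 were kept and 4 lost with scaled counts, 18 kept and 2 lost without hormone and mitochondrial totals, and 5 kept and 15 lost with 10 CPM added, with no change of direction. Those lost with scaled counts included Vamp5 and Syt15 over all cells, read there on the mean with equal cluster weights. With 200 or more counts, 12 were kept and 8 not tested. Members with few counts, such as Syt12, Syt14 and Rab27b in cluster 1, are limited by depth.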
